A study of Mus musculus with 12 samples.

Results

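The genes of the NF-κB subunits and of their feedback inhibitors were followed through the series, the 5 subunit genes Rela, Relb, Rel, Nfkb1 and Nfkb2 and the 5 inhibitor genes Nfkbia, Nfkbib, Nfkbie, Nfkbiz and Tnfaip3. They were chosen by gene symbol, matched to the Ensembl gene IDs of the count tables, and all 10 were found among the 57010 IDs listed. RNA-seq counts were available for 12 libraries of primary mouse chondrocytes, the cartilage cells, all of wild-type genotype. The 4 libraries labelled Control carry no further description of what the cells received. The 4 libraries labelled WT and the 4 labelled SIRT5F101L mutant came from cells transfected with a plasmid of that name, and Sirt5, a mitochondrial lysine deacylase, is the gene in the series title. The labels give no age, sex, time after transfection or culture of origin, and nothing says that the 4 libraries of a group came from separate cultures, so p-values measure only the spread between these libraries, which may be technical.

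NF-κB proteins act as dimers that are held in the cytoplasm by IκB proteins. Cytokine and pathogen receptors activate the IκB kinases, the IκB proteins are marked for degradation, and the freed dimers enter the nucleus and switch on inflammatory and survival genes. Among those target genes are some of the inhibitors, which closes a feedback loop, and in cartilage this pathway is known for raising matrix-degrading enzymes and lowering cartilage matrix genes. Counts measure messages only, not the amount, the modification or the location of the proteins.

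The κB site is the short DNA stretch bound by these dimers, and promoters of the genes are shown because the pathway acts on its own members. RefSeq promoter windows (build GRCm38.p6, 250 bases before to 50 after a transcript start) were at hand for 7 of the 10 genes, and Nfkb1, Relb and Nfkbiz had no entry. The κB consensus was searched on both strands, and 5 of the 7 genes held a match in at least 1 window. Across all genes with a window, 1388 of 27025 held one, or 5.14%. The 150 bases before the start are printed below for those 5 genes, 5′ to 3′ on the strand of the gene, with matching bases in capitals.
Nfkb2, chr19:46304587-46304736, plus strand: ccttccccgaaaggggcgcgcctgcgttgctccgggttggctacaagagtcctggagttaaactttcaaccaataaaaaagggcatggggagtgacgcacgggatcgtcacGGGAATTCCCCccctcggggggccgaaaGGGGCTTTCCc
Rel, chr11:23770970-23771119, minus strand: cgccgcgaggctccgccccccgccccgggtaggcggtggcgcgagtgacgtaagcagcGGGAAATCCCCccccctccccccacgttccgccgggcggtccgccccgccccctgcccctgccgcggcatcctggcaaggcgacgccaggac
Nfkbia, chr12:55492648-55492797, minus strand: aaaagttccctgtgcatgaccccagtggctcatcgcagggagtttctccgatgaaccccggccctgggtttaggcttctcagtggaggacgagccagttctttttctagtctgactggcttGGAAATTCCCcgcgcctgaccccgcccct
Nfkbie, chr17:45555550-45555699, plus strand: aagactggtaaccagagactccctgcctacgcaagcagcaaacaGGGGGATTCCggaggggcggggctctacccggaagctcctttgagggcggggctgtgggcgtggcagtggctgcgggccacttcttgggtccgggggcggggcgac
Tnfaip3, chr10:19015411-19015560, minus strand: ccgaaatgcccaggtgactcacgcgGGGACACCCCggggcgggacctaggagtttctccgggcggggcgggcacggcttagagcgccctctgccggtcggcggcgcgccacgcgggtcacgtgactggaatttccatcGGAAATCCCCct
In Nfkb2 the overlapping matches GGGAATTCCC and GGAATTCCCC and the match GGGGCTTTCC lie within the last 39 bases before this start, and the gene's other windows hold GGAATGTCCC and GGGACTTTCC. The Rel stretch holds the overlapping matches GGGAAATCCC and GGAAATCCCC, which begin 92 and 91 bases before the start. Nfkbia holds GGAAATTCCC 29 bases before its start, Nfkbie GGGGGATTCC 106 bases before, and Tnfaip3 GGGACACCCC and GGAAATCCCC 125 and 12 bases before. The windows of Rela and Nfkbib, and the other window of Tnfaip3, hold no match. A match is a run of letters and not a shown binding site.

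Library totals ran from 18233484 to 19905485 counts in Control, from 15288294 to 19713318 in WT and from 15095357 to 24242139 in SIRT5F101L. Sirt5 itself had 11, 15, 9 and 16 counts in the Control libraries, 9, 9, 8 and 1 in the libraries labelled WT, and 9, 19, 15 and 10 in those labelled SIRT5F101L. It did not pass the test against Control in either plasmid group. The log2 fold change was −0.86 in WT (confidence interval −1.89 to 0.16, adjusted p = 0.143 by edgeR). In SIRT5F101L it was 0.03 (confidence interval −0.90 to 0.97, adjusted p = 0.954 by edgeR). These counts are of the mouse gene and showed no rise of it, with wide intervals. The labels do not say which Sirt5 sequence the plasmids carry, or of which species. A message from the plasmids may therefore be missing from these counts, and expression from the plasmids was not tested. Group names below are the labels of the libraries. Of 14 chondrocyte markers, Col2a1, the main cartilage collagen, stood at 6712 ± 691 counts per 1000000 (CPM, SD, n = 4) in Control, Sox9 at 142 ± 1.6 and Acan at 133 ± 16.0, and Chad was listed at 0. Other markers were low: Matn1 and Snorc, named after their values were seen, had 260 and 294 counts over all 12 libraries. In Control the 14 markers summed to 9223 to 11585 CPM, and 8 fibroblast and synovial markers to 18533 to 21979 CPM. Every ID on the X and Y chromosomes and on the mitochondrial genome was listed at 0, as were some autosomal genes, so nothing can be said of the pathway genes Ikbkg, Irak1, Tab3 and Myd88. In SIRT5F101L replicate 1 long transcripts took a smaller share of the counts than in the rest of its group: the slope of log2 level against log2 length of the transcript was 0.586 there against 0.726 to 0.748, with 0.579 to 0.601 in Control and 0.609 to 0.697 in WT.

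Of the 10 genes, 8 differed from Control in the libraries labelled WT, 7 higher and 1 lower, and the same held for SIRT5F101L (edgeR quasi-likelihood test, adjusted p under 0.05 over 14253 genes). The inhibitors Nfkbiz and Tnfaip3 rose most, the subunit genes Nfkb1, Nfkb2, Relb and Rela and the inhibitor Nfkbia rose less, Rel fell, and Nfkbib and Nfkbie did not pass the test. In these data a call is common: 56.8% of all tested genes were called in WT against Control, 28.7% as higher and 28.1% as lower, and 60.7%, 30.0% and 30.7% in SIRT5F101L against Control. A count of 8 of 10 therefore has to be read by the size of the changes. The median log2 fold change of the 10 genes was 0.54 in WT and 0.53 in SIRT5F101L, where that of all tested genes was −0.01 and −0.02. Without regard to sign, the median size was 0.67 for the 10 genes against 0.37 for all tested genes in WT, and 0.53 against 0.40 in SIRT5F101L. A change of at least 2-fold was called for 3 of the 10 genes in WT and 4 in SIRT5F101L, where 16.7% and 17.5% of all tested genes were. Both comparisons use the same Control libraries, so their values are given side by side and are not independent of each other. In these bulk samples a change in the share of cells that carry a message and a change in its amount per cell cannot be told apart.

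**Figure D1:**
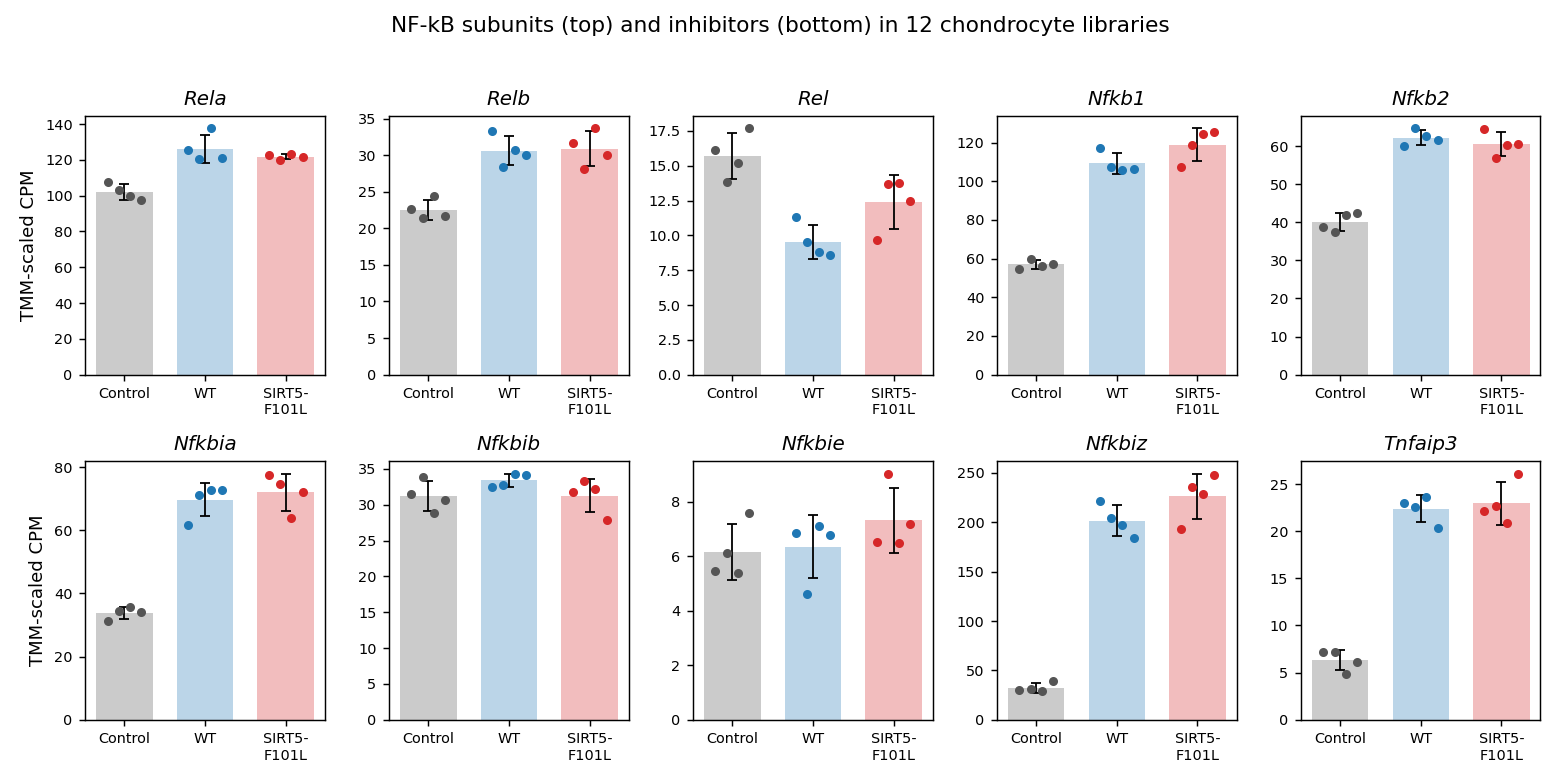
Level of each of the 10 genes in every library, in TMM-scaled CPM on axes that start at 0, with the 5 subunit genes in the upper row and the 5 inhibitor genes in the lower row. Points are libraries, bars are group means and error bars are SD (n = 4). For Nfkbiz all plasmid libraries lie between 184 and 247 CPM and all Control libraries between 28.7 and 38.9, while for Nfkbib and Nfkbie the 3 groups overlap.

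Rela encodes the subunit that carries the main transactivation domain of the common NF-κB dimer. Its level was 107, 103, 99.9 and 97.5 CPM in the Control libraries, 126, 120.3, 138 and 121 in WT, and 123, 119.8, 123 and 122 in SIRT5F101L. The Control libraries all lie below the others, by a narrow margin. The log2 fold change was 0.31 (SE 0.058, adjusted p = 1.48e-04) in WT and 0.26 (SE 0.058, adjusted p = 7.68e-04) in SIRT5F101L, which is 1.24-fold and 1.19-fold.

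Relb encodes the subunit that pairs with the product of Nfkb2 in the noncanonical branch of the pathway. It was measured at 22.7, 21.4, 24.4 and 21.7 CPM in Control, 33.3, 28.5, 30.8 and 30.0 in WT and 31.7, 28.0, 33.7 and 30.0 in SIRT5F101L. No Control library reached the lowest plasmid library, and both plasmid groups cover the same range. The log2 fold changes were 0.44 (SE 0.081, adjusted p = 1.01e-04) and 0.46 (SE 0.081, adjusted p = 6.62e-05).

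Nfkb1 and Nfkb2 encode precursor proteins that are processed to the DNA-binding partners, and whose unprocessed forms act as IκB-like inhibitors. Nfkb1 stood at 54.7, 60.0, 56.1 and 57.1 CPM in Control, 117, 108, 106 and 106 in WT and 107, 119, 124 and 126 in SIRT5F101L. Every plasmid library was well above every Control library, with log2 fold changes of 0.94 (SE 0.064, adjusted p = 1.21e-10) and 1.06 (SE 0.064, adjusted p = 1.61e-11). Nfkb2 stood at 38.8, 37.6, 41.9 and 42.4 CPM in Control, 60.1, 64.7, 62.7 and 61.6 in WT and 64.6, 57.0, 60.2 and 60.5 in SIRT5F101L. It too was separated from Control in all 8 plasmid libraries, with log2 fold changes of 0.63 (SE 0.065, adjusted p = 6.62e-08) and 0.59 (SE 0.065, adjusted p = 1.53e-07). For Nfkb2, 18.1% of the exon bases in the GENCODE M21 annotation also lie in exons of genes on the opposite strand, among them Psd, and counting by strand is not given in the sources used here, so reads of the partners cannot be told apart there.

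Rel, the gene of the c-Rel subunit best known from lymphoid and myeloid cells, was the one member that fell. Its level was 16.1, 13.8, 15.2 and 17.7 CPM in Control, 11.3, 9.55, 8.77 and 8.58 in WT and 9.67, 13.7, 13.8 and 12.5 in SIRT5F101L. All plasmid libraries were below the lowest Control library, but 2 of the SIRT5F101L libraries only just. The log2 fold change was −0.71 (SE 0.126, adjusted p = 6.78e-05) in WT and −0.34 (SE 0.123, adjusted p = 0.0228) in SIRT5F101L. The call in SIRT5F101L was lost without Control replicate 4 (−0.28, adjusted p = 0.0790) and without SIRT5F101L replicate 1 (−0.23, adjusted p = 0.0732), and the log2 fold change became −0.57 with a correction for transcript length and −0.70 with the length slope as a covariate. Of 14 leukocyte markers, 9 could be tested, and 7 of them fell and 2 rose in each plasmid group. The 2 that rose, named after their values were seen, were Cd14, a co-receptor for bacterial lipopolysaccharide, from 12.4 ± 1.02 CPM in Control to 51.2 ± 2.96 in WT and 59.7 ± 8.85 in SIRT5F101L, and S100a8, a calcium-binding protein gene of myeloid cells, from 0.385 ± 0.161 to 48.6 ± 6.65 and 57.3 ± 15.9. Ptprc, which encodes CD45, went from 1.90 ± 0.311 CPM in Control to 0.787 ± 0.400 in WT and 0.709 ± 0.287 in SIRT5F101L, and the macrophage genes Adgre1 and Csf1r fell by 2.03 and 0.92 on the log2 scale in WT and by 1.89 and 0.72 in SIRT5F101L. The Ptprc call in SIRT5F101L was lost with the length slope as a covariate (adjusted p = 0.0553). The summed level of all 14 markers was 174 to 210.2 CPM in Control, 174 to 203 in WT and 187 to 261 in SIRT5F101L, and Itgam, Cd3e and Ms4a1 were listed at 0. The part of such cells in the Rel values was not tested.

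Nfkbia encodes IκBα, the best studied feedback inhibitor, which NF-κB induces and which pulls dimers out of the nucleus. It was measured at 31.3, 34.3, 35.6 and 34.1 CPM in Control, 61.8, 71.3, 72.7 and 72.8 in WT and 77.6, 74.6, 63.9 and 72.1 in SIRT5F101L. The lowest plasmid library was still far above the highest Control library. The log2 fold changes were 1.04 (SE 0.076, adjusted p = 3.68e-10) and 1.09 (SE 0.076, adjusted p = 1.68e-10), or 2.06-fold and 2.13-fold.

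Nfkbib encodes IκBβ, an inhibitor that holds dimers for longer, and Nfkbie encodes IκBε. Nfkbib stood at 31.5, 33.8, 28.8 and 30.7 CPM in Control, 32.4, 32.7, 34.2 and 34.2 in WT and 31.8, 33.2, 32.1 and 27.9 in SIRT5F101L. Nfkbie stood at 5.46, 6.13, 5.37 and 7.59 CPM in Control, 6.85, 4.61, 7.10 and 6.78 in WT and 6.52, 9.02, 6.49 and 7.19 in SIRT5F101L. For both genes the 3 groups overlapped. The log2 fold change of Nfkbib was 0.10 in WT (95% interval −0.06 to 0.26, adjusted p = 0.282) and 0.00 in SIRT5F101L (−0.15 to 0.16, adjusted p = 0.972), so that changes as large as that of Nfkbia lie outside its intervals. For Nfkbie, with at most 162 counts in a library, the intervals were wider, −0.29 to 0.39 (adjusted p = 0.806) and −0.09 to 0.58 (adjusted p = 0.204). Of the Nfkbib exon bases, 16.4% lie in exons of opposite-strand genes, one of which, Sirt2, fell by 0.43 in WT and by 0.53 in SIRT5F101L on the log2 scale.

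Nfkbiz encodes IκBζ, an atypical nuclear IκB protein that is induced by NF-κB and is needed for a later wave of target genes. It was measured at 29.8, 31.2, 28.7 and 38.9 CPM in the Control libraries, 222, 204, 198 and 184 in WT and 193, 235, 228 and 247 in SIRT5F101L. This was the largest change among the 10 genes, with every plasmid library at several times the highest Control library. The log2 fold change was 2.65 (SE 0.095, adjusted p = 4.02e-15), or 6.27-fold with a 95% interval of 5.46 to 7.20, in WT. In SIRT5F101L it was 2.81 (SE 0.096, adjusted p = 1.53e-15), or 7.03-fold with an interval of 6.12 to 8.08.

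Tnfaip3 encodes A20, a ubiquitin-editing enzyme that shuts down signalling above the IκB kinases. Its level was 7.20, 7.14, 4.90 and 6.11 CPM in Control, 23.0, 22.6, 23.7 and 20.3 in WT and 22.1, 22.7, 20.9 and 26.1 in SIRT5F101L. The groups were again separated from Control without overlap, and the plasmid groups lay on top of each other. The log2 fold changes were 1.82 (SE 0.116, adjusted p = 4.36e-11) and 1.85 (SE 0.116, adjusted p = 2.97e-11), or 3.53-fold and 3.61-fold.

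Counting libraries without a model gave the same picture: 8 of the 10 genes had no overlap with Control in WT, where 53.5% of all tested genes had none, and 8 had none in SIRT5F101L, where 51.3% had none. The 7 rises and the fall of Rel in WT kept their direction and their call under all 22 alternative settings tried, which include leaving out each library, and so did the 7 rises in SIRT5F101L.

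**Figure D2:**
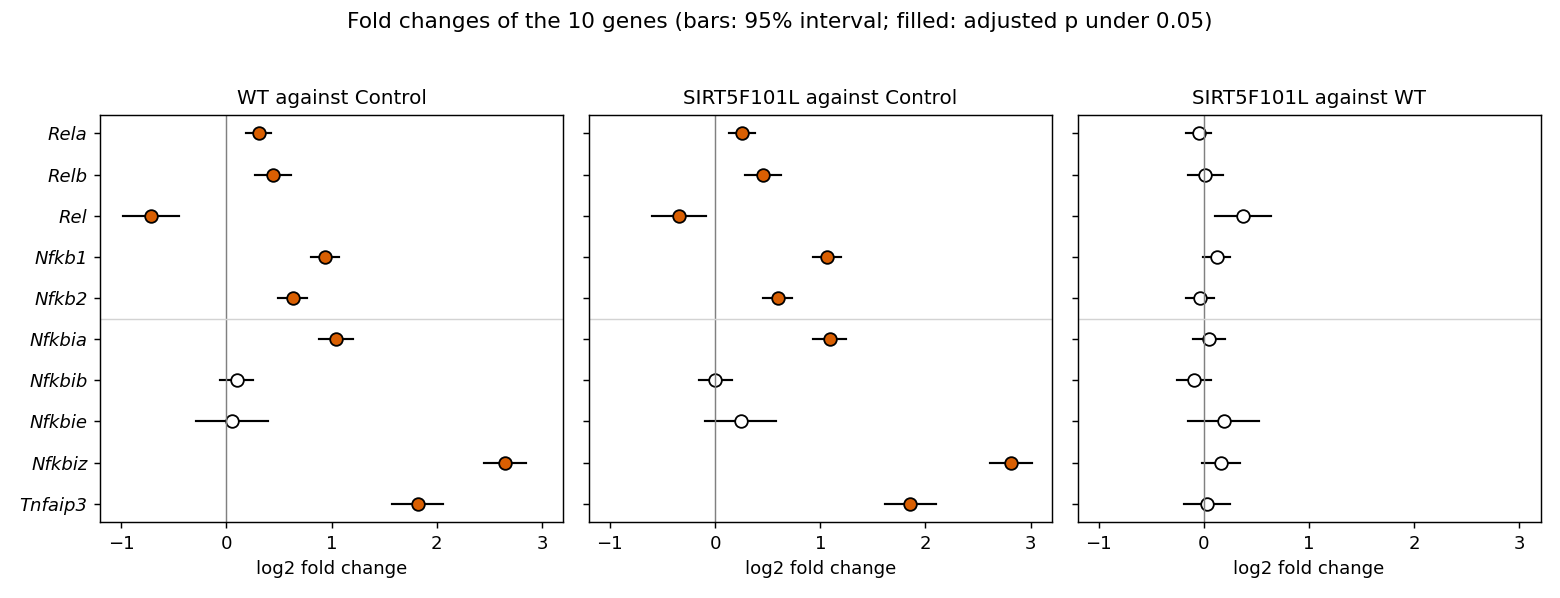
log2 fold changes (x axis) of the 10 genes (y axis, subunits above the grey line and inhibitors below it) in the 3 comparisons, with 95% intervals as bars and filled points where the adjusted p was under 0.05. Nfkbiz and Tnfaip3 lie farthest to the right in both comparisons with Control, Rel lies to the left, and no point is filled in the comparison of SIRT5F101L with WT.

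Because counts grow with transcript length, levels of different genes were compared per base of the longest annotated transcript, scaled to a sum of 1000000 (TPM). In Control the order ran from Rela (90.9 ± 4.0 TPM) through Nfkbia (51.8 ± 2.95), Nfkbib (36.6 ± 3.06), Nfkb1 (33.2 ± 1.88), Nfkb2 (25.2 ± 1.42), Nfkbiz (18.9 ± 2.98), Relb (16.6 ± 0.666), Rel (5.09 ± 0.544) and Nfkbie (4.95 ± 0.903) to Tnfaip3 (2.48 ± 0.448; SD, n = 4). Neighbours whose libraries overlapped were Nfkbib with Nfkb1, Nfkbiz with Relb, and Rel with Nfkbie. In WT Nfkbiz (127 ± 14.2 TPM), Rela (119.8 ± 9.97) and Nfkbia (113 ± 5.80) overlapped at the top, and Nfkb1 (67.9 ± 5.67) stood alone below them. The lower end in WT held Tnfaip3 (9.32 ± 0.877), Nfkbie (5.44 ± 1.05) and Rel (3.30 ± 0.540), of which the last 2 overlapped. In SIRT5F101L the same 3 genes overlapped at the top, Nfkbiz at 148 ± 23.6, Nfkbia at 122 ± 8.10 and Rela at 119.9 ± 7.65 TPM, and Rel was again last at 4.47 ± 0.896. The order depended on the transcript length, which for Rela was 2716 bases for the longest transcript and 786 for the median. With the median length of a gene's transcripts in place of the longest, Rela stood alone at the top in all 3 groups, at 135 ± 5.84, 178 ± 12.8 and 176 ± 6.70 TPM, and Nfkbia and Nfkbiz followed it in the plasmid groups with overlapping libraries. With that length the last 3 genes in Control, Nfkbie, Tnfaip3 and Rel, each overlapped the next, and Rel was still last in the plasmid groups.

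Summed per length, the 5 subunit messages came to 171 ± 3.14 TPM in Control, 257 ± 16.8 in WT and 269 ± 21.7 in SIRT5F101L (SD, n = 4). The 5 inhibitor messages came to 115 ± 7.18, 296 ± 13.0 and 326 ± 30.8 TPM. In Control the inhibitors summed to less than the subunits. Which class was higher in the plasmid groups depended on the transcript length. With the longest transcript the inhibitor sum was higher. Of that sum Nfkbiz, whose product is also needed for a later wave of target genes, alone held 127 ± 14.2 TPM in WT and 148 ± 23.6 in SIRT5F101L. With the longest protein-coding transcript, a length added after the data were seen, the inhibitor sum was higher too. It was 279 ± 12.9 TPM against 249 ± 17.0 for the subunits in WT, and 308 ± 30.3 against 261 ± 21.8 in SIRT5F101L. With the median length the inhibitor sum was lower, at 171 ± 4.39 TPM against 263 ± 14.98 for the subunits in WT and at 184 ± 12.1 against 267 ± 13.1 in SIRT5F101L. With the median length the sums in Control were 71.3 ± 4.36 TPM for the inhibitors and 184 ± 5.23 for the subunits. Within the inhibitors Nfkbiz made up 16.4% ± 1.81 in Control, 42.6% ± 3.17 in WT and 45.0% ± 3.54 in SIRT5F101L, while the share of Nfkbia went from 45.2% ± 2.51 to 38.4% ± 2.92 and 37.5% ± 3.14 although its level rose. Within the subunits the share of Rela went from 53.1% ± 1.62 to 46.6% ± 1.71 and 44.7% ± 0.804. These shares depend on the transcript length used, and were described without a test.

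**Figure D3:**
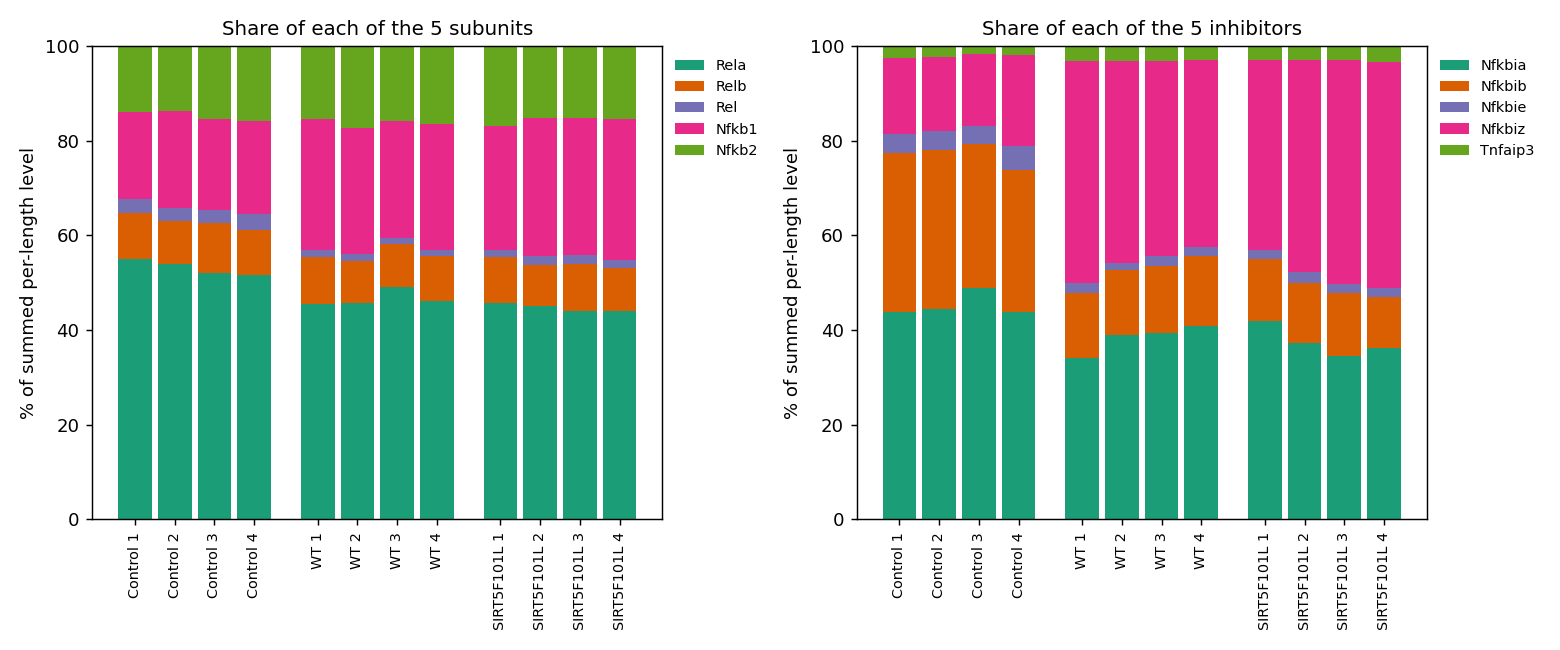
Share of each subunit message (left) and each inhibitor message (right) in the summed per-length level of its class, in percent, 1 bar per library. In the right panel the Nfkbiz band covers between 15.2% and 19.1% in Control libraries and between 39.6% and 47.7% in the plasmid libraries, and in the left panel Rela stays the broadest band in all 12 libraries.

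None of the 10 genes passed the test between SIRT5F101L and WT (edgeR, adjusted p under 0.05), where 6 of all 14253 tested genes did, or 0.0421%. At an unadjusted p under 0.05 the count was 1 of 10, against 11.9% of all tested genes, and no member separated the plasmid groups without overlap, which 4.03% of all tested genes did. DESeq2 also called 0 of the 10. The median absolute log2 difference of the 10 genes was 0.07, and that of all tested genes was 0.11. The 95% intervals of the difference were −0.17 to 0.07 for Rela, −0.17 to 0.10 for Nfkb2, −0.15 to 0.18 for Relb, −0.11 to 0.20 for Nfkbia, −0.25 to 0.06 for Nfkbib and −0.18 to 0.25 for Tnfaip3. The interval was −0.15 to 0.53 for Nfkbie.

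Rel had the largest value between the plasmid groups, with a log2 difference of 0.38 (SE 0.128, 95% interval 0.11 to 0.64, unadjusted p = 0.00815, adjusted p = 0.360), followed by Nfkbie with 0.19 (95% interval −0.15 to 0.53, adjusted p = 0.631), Nfkbiz with 0.16 (95% interval −0.017 to 0.35, adjusted p = 0.449) and Nfkb1 with 0.12 (95% interval −0.0089 to 0.25, adjusted p = 0.441). For Rel, Nfkbiz and Nfkb1, SIRT5F101L replicate 1 was the lowest library of its group. Without that library these 3 were called, Rel at 0.48 (adjusted p = 0.00557), Nfkbiz at 0.23 (adjusted p = 0.0235) and Nfkb1 at 0.17 (adjusted p = 0.0456), and the number of all genes called went from 6 to 2213. With the library left out and transcript length corrected for, a setting added after the data were seen, none of the 3 was called: Rel was at 0.33 (adjusted p = 0.0617), Nfkbiz at 0.20 (adjusted p = 0.0562) and Nfkb1 at 0.13 (adjusted p = 0.157). With all libraries and the length slope as a covariate, the values became 0.19 for Rel, 0.041 for Nfkbiz and 0.048 for Nfkb1, and that of Nfkbie ranged down to 0.071, without WT replicate 2. None of these was called.

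**Figure D4:**
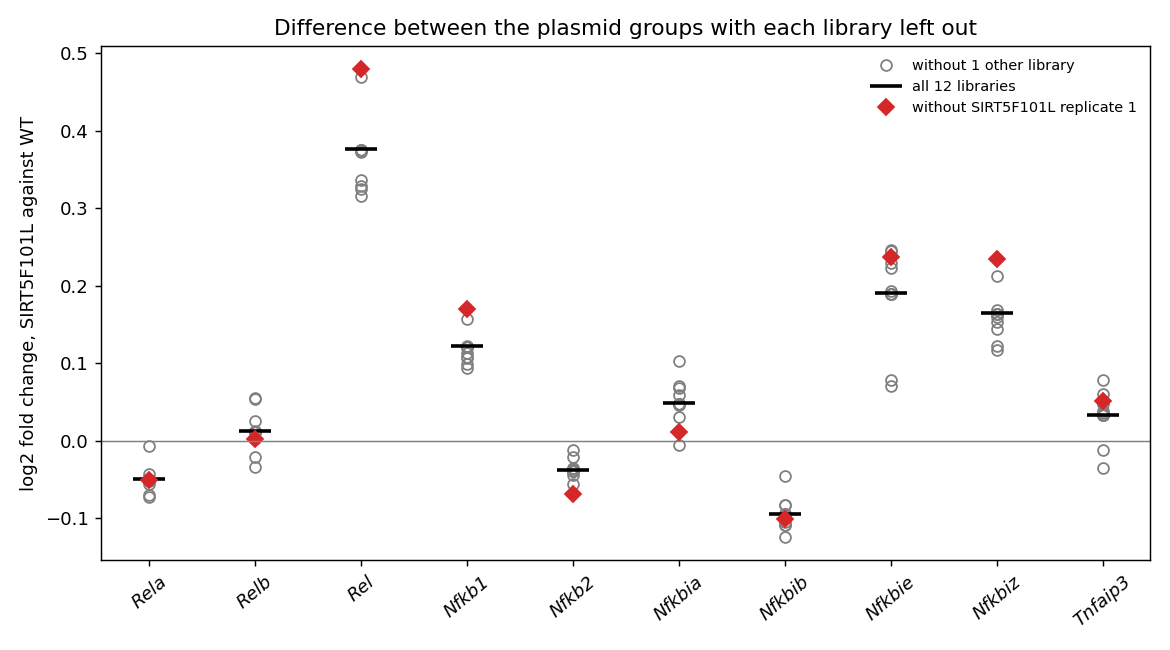
log2 difference of SIRT5F101L from WT (y axis) for each of the 10 genes (x axis) with all 12 libraries (black line), without SIRT5F101L replicate 1 (red diamond) and without each of the other libraries (open circles). Leaving out that library gave the highest value for Rel, Nfkb1 and Nfkbiz, and for the other genes most values lie within 0.1 of the full fit.

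The rest of the pathway was read from lists of related genes, of which those counted below passed the filter on low counts. Their counts stand beside the 56.8% and 60.7% of all tested genes called in WT and SIRT5F101L, and a share near these is no result about a list. Of 11 receptors, 7 rose and 1 fell in WT, and 6 rose and 2 fell in SIRT5F101L. Il1rap, the partner chain of the interleukin-1 receptor, rose by 1.27 in WT (log2, adjusted p = 0.00532) and by 1.79 in SIRT5F101L (adjusted p = 1.66e-04), from 0.556 ± 0.153 CPM in Control to 1.35 ± 0.213 and 1.94 ± 0.741. Its call in SIRT5F101L was lost with the length slope as a covariate. Tlr4 and Tlr2, receptors for bacterial products, rose by 1.10 and 1.05 (log2) in WT and by 1.19 and 1.17 in SIRT5F101L, and Tnfrsf1b, a TNF receptor, rose by 1.01 and 1.03. Il1r1, the signalling receptor of interleukin-1, fell by 0.65 in WT and by 0.43 in SIRT5F101L. Of the other receptor calls, named after their values were seen, the rise of Cd40 in WT was lost in 7 of the 22 alternatives. Cd40 was not tested in 1 more. The fall of Tnfrsf11a in SIRT5F101L was lost in 6. Of 20 adaptors and ubiquitin ligases, 10 rose and 1 fell in WT, and 9 rose and 3 fell in SIRT5F101L, which made 55.0% and 60.0% called, near the shares of all tested genes. Birc3, Irak2, Traf1 and Traf3 rose most among them in WT, with values of 0.95, 0.92, 0.91 and 0.87 there and 1.10, 0.91, 0.90 and 1.04 in SIRT5F101L, and Birc2 fell by 0.35 in WT. The falls in SIRT5F101L, named after their values were seen, were lost in 11 of the 22 alternatives for Card10, in 3 for Rbck1 and in 1 for Tradd. Of the rises, also named afterwards, that of Traf2 in WT was lost in 8, and that of Ripk1 in 2 in each group.

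Of 10 tested kinases and kinase partners at the IκB step, 7 rose and 1 fell in each plasmid group. Map3k8, a kinase tied to the Nfkb1 precursor, rose by 1.44 (log2) in WT and by 1.56 in SIRT5F101L, Ikbke by 0.93 and 0.90, and Map3k14, the kinase of the noncanonical branch, by 0.73 and 0.83. The catalytic kinase gene Chuk rose by 0.25 and 0.32, the second of which became 0.17 (adjusted p = 0.0892) with the length slope as a covariate. Ikbkb had values of 0.11 (adjusted p = 0.234) and 0.14 (adjusted p = 0.118). Tab1, a cofactor of the kinase encoded by Map3k7, fell by 0.32 and 0.40. Of the 6 genes of the ligase that marks IκB proteins, Skp1 and Rbx1 fell by 0.30 and 0.25 in WT and by 0.27 and 0.36 in SIRT5F101L. The call of Rbx1 in WT was lost in 3 of the 22 alternatives, and those of Skp1 and Rbx1 in SIRT5F101L were each lost in 1, with the length slope as a covariate. The receptor subunits Btrc and Fbxw11 stood at 0.04 and 0.03 in WT and at 0.10 and 0.06 in SIRT5F101L without passing the test. Ube2d3 and Cul1 were called as higher in SIRT5F101L by 0.16 and 0.15, and 13 and 8 of the 22 alternatives ended those calls without turning the sign. For Ube2d3 another 2, both with the length correction, called it lower, at −0.20 (adjusted p = 0.0333) and −0.29 (adjusted p = 3.64e-04).

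Among 4 relatives of the IκB family, Bcl3, a nuclear IκB protein that works with the product of Nfkb2, rose by 1.63 (log2) in both plasmid groups, from 12.2 ± 0.702 CPM in Control to 37.8 ± 0.862 in WT and 37.5 ± 4.24 in SIRT5F101L. Nkiras2 fell by 0.56 and 0.65, and Nkiras1 and Nfkbid did not pass the test. The other brakes of the pathway did not move one way: of 16 tested, 4 rose and 7 fell in WT, and 4 rose and 5 fell in SIRT5F101L. Those that rose in WT were Rnf11 at 1.43, Zc3h12a, an RNA-degrading enzyme, at 1.30, Otud7b at 0.55 and Cyld, a deubiquitinase, at 0.31, with 1.53, 1.41, 0.58 and 0.42 in SIRT5F101L. Among those that fell in WT, Pias1, a SUMO ligase gene, fell by 0.38, Pdlim2 by 0.37, the deubiquitinase gene Otulin by 0.20 and Tax1bp1, which encodes a partner of the Tnfaip3 protein, by 0.20. In SIRT5F101L Pdlim2 fell by 0.57, Otulin by 0.36 and Pias1 by 0.19, and Tax1bp1 stood at −0.03 (adjusted p = 0.667). The calls of Otulin in WT and of Pias1 in SIRT5F101L were each lost in 10 of the 22 alternatives, and that of Otulin in SIRT5F101L in 1, the length slope as a covariate (−0.20, adjusted p = 0.0955). Of the other 3 genes called lower in WT, named after their values were seen, Spata2 lost its call in 15, Tnip1 in 6 and Tnfaip8l2 in 3, and Tnfaip8l2 was not tested in 1 more. Tnip1 also fell in SIRT5F101L, by 0.29 (adjusted p = 0.00172), a call that held in all 22. Of 10 genes whose products modify the Rela protein, 1 rose and 5 fell in WT, and 2 rose and 5 fell in SIRT5F101L, or 60.0% and 70.0% called. The acetyltransferase gene Ep300 rose by 0.34 and 0.42, and its call in SIRT5F101L was lost in 2 alternatives. Its relative Crebbp, named after its values were seen, stood at 0.13 in WT (adjusted p = 0.346) and was called higher in SIRT5F101L at 0.29 (adjusted p = 0.0329), a call that 9 of the 22 alternatives ended, 2 of them with the sign turned. The methyltransferase gene Setd7 fell by 0.70 and 0.65.

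Of 25 tested canonical target genes, 21 rose and 3 fell in each comparison with Control, and the median log2 fold change was 2.56 in WT and 2.82 in SIRT5F101L. The list was written with results of these data known, so its direction is no independent evidence. The acute-phase gene Saa3 rose by 7.95 in WT and by 8.02 in SIRT5F101L, the chemokine gene Ccl5 by 6.96 and 6.83, the matrix metalloproteinase gene Mmp3 by 6.55 and 6.85, and Lcn2 by 6.16 and 6.35. The adhesion gene Vcam1 fell by 0.77 and 0.39, Gadd45b by 0.77 and 1.02 and Icam1 by 0.22 and 0.30. The Icam1 call in WT was lost under 5 of the 22 alternatives, and that in SIRT5F101L under 1, the length slope as a covariate (−0.19, adjusted p = 0.138). Vcam1 was also the 1 gene of the list called between the plasmid groups, at 0.38 for SIRT5F101L against WT (adjusted p = 0.0441). That call was lost in 13 of the 22 alternatives, which included 11 of the 12 that leave out 1 library, while the log2 difference ranged from 0.33 to 0.42. Beside these values, 11 of 13 tested chondrocyte markers fell in each plasmid group and the summed level of that list went from 9223 to 11585 CPM in Control to 2849.7 to 2965 in WT and 2319.9 to 2564 in SIRT5F101L. The other 2 were Acan, which rose by 0.47 in WT and did not pass the test in SIRT5F101L, and Hapln1, named after its values were seen, which was called higher by 0.25 in WT and by 0.18 in SIRT5F101L, calls that 1 and 9 of the 22 alternatives ended. The endothelial markers Pecam1 and Cdh5 did not pass the test. Of 7 tested fibroblast and synovial markers, 2 rose and 5 fell in each plasmid group, and the summed level of that list went from 18533 to 21979 CPM in Control to 7499 to 8578 in WT and 7730.4 to 8651 in SIRT5F101L. The synovial gene Prg4 rose by 0.41 and 0.54 while the fibroblast gene Thy1 fell by 1.22 and 1.21. The part of these shifts in the pathway values was not tested.

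**Figure D5:**
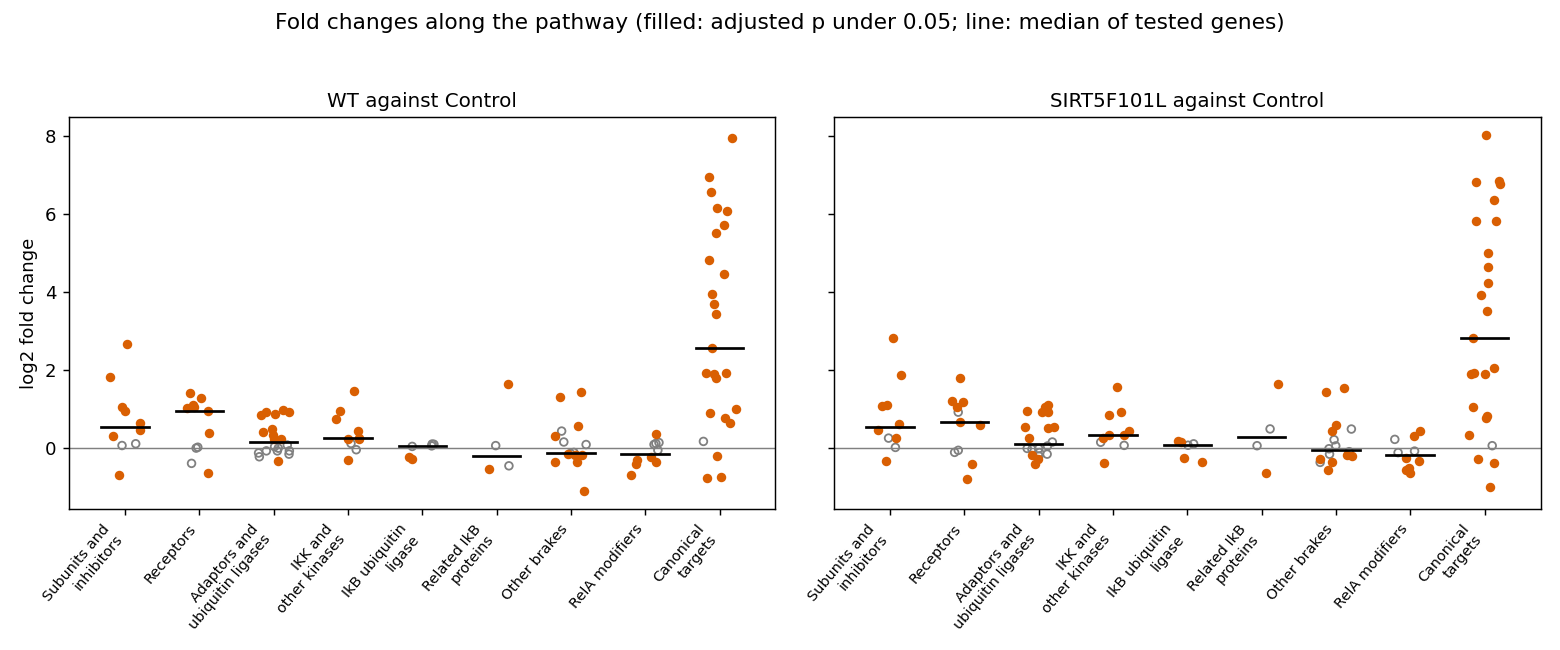
log2 fold change (y axis) of every tested gene of the 10 and of 8 related lists (x axis), in WT against Control (left) and SIRT5F101L against Control (right). Filled points have an adjusted p under 0.05 and the black line is the median of the list, which is 2.56 and 2.82 for canonical targets and 0.54 and 0.53 for the 10 genes.

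For each of the 10 genes the most similar profiles across the 12 libraries were sought among 9778 other genes averaging 5 CPM or more, by the root mean square difference of log2 levels centred on Control. Nfkbiz was most like Itga2 (0.11) and Nkd2 (0.133), Tnfaip3 most like St3gal1 (0.129) and Ptges (0.138), and Nfkbia most like Net1 (0.070) and Fth1 (0.071). Nfkb1 was most like Cpt1a (0.050) and Smurf1 (0.065), Nfkb2 most like Dmpk (0.055) and Rtn4 (0.058), and Rela most like Pmpca (0.039) and Actn4 (0.050). Relb was most like Knop1 (0.070) and Larp1 (0.075), and Rel most like Abca1 (0.093) and Pappa (0.100). Nfkbib was most like Gmps (0.067) and Nup54 (0.072), and Nfkbie most like Plagl2 (0.138) and Slc33a1 (0.149). Of these partners only Ptges belongs to a list read above, the canonical targets.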

How the data were processed

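Sequencing of poly(A)-selected RNA gave 12 libraries, 4 in each of the groups Control, WT and SIRT5F101L, which were assigned from the labels' treatment field; replicate numbers follow the listing order within a group and only name a library. The deposited files hold whole-number counts per Ensembl gene ID and library. The submitters' processing notes name FastQC 0.11.9, HISAT2 2.2.1, HTSeq 2.0.2, DESeq2 1.38.3 and the genome build GRCm39 (mm39); the annotation and the strand setting are not given in the sources used here. Symbols, transcript lengths and exon overlaps came from GENCODE M21 (GRCm38), which paired 52029 of the 57010 IDs with a symbol, and no coordinates were taken across builds.

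Counts were analysed in R 4.3.3 with edgeR 4.0.16: TMM scaling, the filterByExpr filter by group, which left 14253 genes, and the quasi-likelihood test on all 12 libraries with 1 mean per group, so that the groups shared one estimate of the spread on 9 residual degrees of freedom. P-values were adjusted by the Benjamini-Hochberg method over all tested genes at 0.05. On simulated counts, in which only a small share of genes was changed, the share of false calls was above this level in each comparison. In the data far more genes were called against Control, so the simulated share does not carry over to those comparisons. A call close to the threshold may be less certain than its adjusted p says. CPM are counts per 1000000 of the TMM-scaled library total, in which 1 count is worth 0.0413 to 0.0662 CPM before scaling, and TPM are counts per base of the longest transcript scaled to a sum of 1000000. Promoter sequences are from RefSeq. Alternatives were RLE and upper-quartile scaling, other filters on low counts, a robust prior, the 8 libraries of each comparison alone, DESeq2 1.42.0, a transcript length offset, the length slope as a covariate and leaving out each library. All 10 genes passed the filter.

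The 10 genes and all lists were chosen with earlier results of these data known. The genes named are the 10 members and Sirt5, any gene of the kinase, ligase and IκB-related lists, of each longer list up to 4 called genes with the highest and up to 4 with the lowest log2 fold change in WT and a mean of at least 1 CPM, and set marker genes; of the similar profiles, the 2 nearest per gene. Sirt2 is named for its overlap with Nfkbib, and genes listed at 0 are named after their values were seen. Some genes of the lists are not reported here and were left out of the counts.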

Additional observations from a re-analysis of the deposited data

Results flagged for a closer look

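Of 45 groups of 4 libraries screened for a single library standing apart, 6 were picked out, where chance alone gives about 1 in 20. In WT replicate 1 Nfkb1 was at 117 CPM with the other 3 libraries at 106 to 108, and Nfkbia at 61.8 CPM with the others at 71.3 to 72.8. In WT replicate 2 Nfkbie was at 4.61 CPM, the others at 6.78 to 7.10. In Control replicate 3 Nfkbia made up 48.9% of the inhibitor messages, and 43.7% to 44.4% in the others. In SIRT5F101L replicate 2 Sirt5 was at 1.23 CPM, the others at 0.481 to 0.601. In SIRT5F101L replicate 1 the slope of log2 level against log2 length of the transcript was 0.586, and 0.726 to 0.748 in the others.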

How the results depend on the processing

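No paired analysis was possible because the labels give no replicate numbers; the numbers used here follow the order in which the samples are listed and pair nothing. The 8 calls in WT against Control held in all 22 alternatives; in SIRT5F101L against Control, 7 did and Rel was lost in 2. Between SIRT5F101L and WT, 0 to 3 members were called when 1 library was left out. There the count of all genes called, 6 in the fit with all libraries, was 0 to 2213 with 1 library left out (2213 without SIRT5F101L replicate 1), 354 with no filter beyond 1 count, 2 with the robust prior, 2 with only the 8 libraries compared, 44 with DESeq2, 20 with the length offset, 25 with the length slope as a covariate, and 1206 without SIRT5F101L replicate 1 and with the length offset, an alternative chosen after seeing the data; the causes were not tested. Directions turned only for values that did not pass the test in the full fit, except Crebbp and Ube2d3. Nfkbie in WT became −0.0419 with the length slope and ranged from −0.00755 to 0.171 with 1 library left out. Nfkbib in SIRT5F101L became −0.0419 with upper-quartile scaling and ranged from −0.0350 to 0.0531 with 1 library left out. Sirt5 in SIRT5F101L became −0.0109 with upper-quartile scaling and −0.623 with the length slope, and ranged from −0.315 to 0.182 with 1 library left out. Between the plasmid groups, with 1 library left out, Relb ranged from −0.0334 to 0.0549, Tnfaip3 from −0.0352 to 0.0783 and Nfkbia from −0.00603 to 0.103. Relb became −0.00468 in the added alternative, Tnfaip3 −0.0360 with the length offset, −0.0182 with the slope and −0.0675 in the added alternative, and Nfkb2 0.00383 with the slope. In SIRT5F101L against Control, Crebbp became −0.0306 with the length offset and −0.130 with the slope, and Ube2d3 −0.202 with the offset and −0.287 in the added alternative. With the median transcript length the Rela share was 73.5%, 67.8% and 66.1% in Control, WT and SIRT5F101L and the Nfkbiz share 12.7%, 35.5% and 37.8%; with the longest protein-coding transcript, also added after seeing the data, the Rela share was 50.7%, 44.5% and 42.7%. No scaling moved the median of all genes by over 0.1 (log2). Upper-quartile scaling moved it to −0.06. Depth limits Sirt5, at 1 to 19 counts, and Nfkbie, at 72 to 162.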

Other observations

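Some genes of the lists were too low to test. The cytokine gene Tnf stood at 0.784 ± 0.317 CPM in Control, 0.0882 ± 0.137 in WT and 0.0959 ± 0.0877 in SIRT5F101L (SD, n = 4), with 0 to 19 counts in a library. Il1b had 0 to 7 counts in a library. Cd83, a marker of activated dendritic and B cells, stood at 0.611 ± 0.355, 0.0706 ± 0.0519 and 0.0367 ± 0.0504 CPM, and the growth factor gene Csf3 at 0.0253 ± 0.0506, 0.374 ± 0.233 and 0.455 ± 0.235 CPM. The targets Ccl2, Cxcl10, Cfb, Bcl2a1b and Hif1a were listed at 0 in all 12 libraries. So was every ID on the X and Y chromosomes and on the mitochondrial genome, so a 0 here cannot be read as low expression. All genes of this paragraph were named after their values were seen.

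Of the noncanonical targets, 2 could be tested. Cxcl12, a chemokine gene, fell, with log2 fold changes of −3.76 in WT and −3.71 in SIRT5F101L, from 1232 ± 37.2 CPM in Control to 90.7 ± 3.65 and 94.4 ± 5.80. Tnfsf13b, which encodes the B-cell factor BAFF, rose by 1.52 (adjusted p = 0.0202) and 1.45 (adjusted p = 0.0243), and 3 of the 22 alternatives ended each of these calls. It was not tested in 1 further alternative in WT and in 2 in SIRT5F101L, where it did not pass the filter on low counts.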
